A study of Mus musculus with 21 samples.

Results

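Polycomb repressive complex 1 (PRC1) was described through the genes of 9 of its subunits, Rnf2, Ring1, Bmi1, Pcgf5, Cbx2, Cbx7, Cbx8, Phc1 and Phc2, in bulk RNA sequencing of mouse acute myeloid leukaemia (AML) cells. The members were picked by gene symbol and are 9 of 16780 gene symbols over the 3 expression tables of the series. All 9 stood in every table. The 21 libraries fall into 8 groups.

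In cells transformed by the fusion oncogene NUP98-NSD1, 3 libraries came from treatment with UNC1999, 3 from treatment with JQEZ5 and 3 from DMSO, the vehicle. In the wording of the labels, UNC1999 and JQEZ5 were given at 3 µM, and all 3 treatments lasted 4 days. UNC1999 and JQEZ5 are inhibitors of the methyltransferase activity of PRC2. A separate experiment in NUP98-NSD1 cells used lentiviral pLKO.1-puro, with 3 libraries of puromycin-selected cells carrying an shRNA against the H3K4 demethylase gene Kdm5b (shKdm5b) and 3 carrying the empty vector (shEV). In cells transformed by MLL-AF9, MSCV-neo retrovirus delivered wild-type Kdm5b (WT, 2 libraries), its demethylase-dead H499A mutant (2 libraries) or the empty vector (EV, 2 libraries). All of these were established lines cultured with stem cell factor, so every group, controls included, carries a fusion oncogene and no normal blood cell was measured. The labels do not say whether replicates were separate cultures or infections, so p-values measure the spread between libraries, which may be technical.

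As background, PRC1 attaches ubiquitin to histone H2A through a RING-type E3 ligase, RNF2 (also called RING1B) or RING1, which works as a pair with a PCGF protein. In canonical PRC1 the PCGF protein is BMI1 (PCGF4) or PCGF2, a CBX protein reads H3K27me3, the mark that PRC2 writes, and a PHC protein clusters the complexes by polymerising. Variant PRC1 carries RYBP or YAF2 in place of CBX and PHC, and PCGF5 belongs to such a complex. BMI1 is known for the self-renewal of blood and leukaemia stem cells and for repression of the Cdkn2a tumour suppressor locus.

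The libraries held 12.81 to 18.93 M counted reads in the inhibitor experiment, 21.27 to 34.81 M in the knockdown experiment and 17.34 to 19.97 M in the overexpression experiment. Member genes had 50 to 1686, 152 to 3150 and 30 to 2447 reads per library in these experiments, with the low ends at Cbx7 in the inhibitor and overexpression tables and at Cbx8 in the knockdown table. UNC1999 replicate 3 was the shallowest library, and shKdm5b replicate 1 stood apart from the other shKdm5b libraries, so results that rest on either are also given without it. The targeted gene followed the labels, with Kdm5b at 28.7 ± 5.44 normalised counts in shKdm5b against 74.5 ± 17.8 in shEV cells (SD, n = 3 each, adjusted p = 0.00401 in the limma fit without a filter) and at 1413 ± 4.48 in WT and 294 ± 21.5 in H499A against 121.4 ± 9.89 in EV cells (SD, n = 2 each). WT transcript stood 4.81-fold above H499A transcript, so both arms differ in Kdm5b level as well as in the mutation. Erythroid and T or NK cell markers were nearly absent, with at most 2 of 8 listed per table in either list and a summed level of at most 6.06 CPM (reads of a gene per M reads of its library). Kdm5b stood at 2.52 ± 0.607 CPM in shEV cells and at 40.1 ± 1.05 CPM in DMSO cells (SD, n = 3 each), so the NUP98-NSD1 controls of the separate experiments also differ in the gene targeted.

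The members lie on 8 chromosomes in the GENCODE annotation of GRCm38. Rnf2 spans chr1:151458004-151500955 on the minus strand and Ring1 chr17:34020792-34024680, minus. Bmi1 spans chr2:18677018-18686629 on the plus strand, and Pcgf5 spans chr19:36348309-36460970, plus. Cbx2 lies at chr11:119022962-119031270 (plus) next to Cbx8 at chr11:119036305-119040969 (minus), while Cbx7 lies at chr15:79915807-79971119 (minus). Phc1 spans chr6:122317731-122340561 on the minus strand and Phc2 chr4:128654702-128752881 on the plus strand. Exons of 8 members overlap no other annotated gene. Pcgf5 exons overlap the antisense gene F530104D19Rik by 60 bases, and whether the counting used strand is not given in the sources used here. RefSeq promoter windows, from 250 bases before to 50 bases after a transcript start on GRCm38.p6, matched 8 of 9 members in 12 windows, and Cbx2 had none. The windows below are those of Bmi1 and Pcgf5 (its most upstream start), the PCGF genes that changed in most comparisons, and of Rnf2, the E3 ligase gene that fell with Bmi1 in shKdm5b cells. Each is read 5′ to 3′ along its gene, with matches to the motifs searched in capitals.
Bmi1, chr2:18676768-18677067, plus strand: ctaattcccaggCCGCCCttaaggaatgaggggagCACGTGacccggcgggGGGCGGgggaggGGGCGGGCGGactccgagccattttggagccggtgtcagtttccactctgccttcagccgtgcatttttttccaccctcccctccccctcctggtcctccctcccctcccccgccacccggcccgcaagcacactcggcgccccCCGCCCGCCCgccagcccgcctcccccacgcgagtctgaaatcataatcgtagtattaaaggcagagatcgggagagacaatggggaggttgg
Pcgf5, chr19:36348079-36348378, plus strand: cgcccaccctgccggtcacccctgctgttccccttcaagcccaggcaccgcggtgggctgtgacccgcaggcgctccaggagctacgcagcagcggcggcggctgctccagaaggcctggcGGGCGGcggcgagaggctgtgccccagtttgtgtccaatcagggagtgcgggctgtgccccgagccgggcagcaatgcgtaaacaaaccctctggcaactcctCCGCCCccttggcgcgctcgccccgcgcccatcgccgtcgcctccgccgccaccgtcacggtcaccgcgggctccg
Rnf2, chr1:151500942-151501241, minus strand: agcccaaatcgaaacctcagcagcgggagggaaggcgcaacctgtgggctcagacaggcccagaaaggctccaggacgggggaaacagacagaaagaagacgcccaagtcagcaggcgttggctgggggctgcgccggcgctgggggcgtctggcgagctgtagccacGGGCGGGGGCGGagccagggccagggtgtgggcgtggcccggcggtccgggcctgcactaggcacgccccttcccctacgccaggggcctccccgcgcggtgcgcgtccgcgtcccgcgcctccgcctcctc

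The search covered both strands for the E-box CACGTG, which MYC and USF factors bind, the GC box GGGCGG of SP factors, the E2F motif TTTNNCGC and the ETS motif CCGGAAG. In the Bmi1 window the E-box starts at position 36, and 6 GC-box matches, some of them overlapping, were found with 23 CpG dinucleotides. The Pcgf5 window holds 2 GC boxes and 34 CpGs, and the Rnf2 window 2 GC boxes and 30 CpGs. Over all members, an E-box was found in 3 of 12 windows (Bmi1, Cbx8 and 1 of 3 Phc2 windows), against 7.2% of 32851 windows genome-wide. A GC box was found in 9 of 12 member windows, against 35.7% of all windows, an ETS motif in 1 of 12, against 8.9%, and the E2F motif in 0 of 12, against 5.2%. CpG counts of the member windows spanned 2 to 45, against a median of 7 over all windows. A match describes letters and is not evidence of binding.

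Levels were first compared across all 8 groups as CPM, which sets 3 separately normalised tables side by side and carries no test between tables. Bmi1 varied most among the members, with a 4.53-fold span between its highest group, EV at 128.7 ± 0.919 CPM (SD, n = 2), and its lowest, DMSO at 28.4 ± 0.19 (SD, n = 3). Below EV came WT at 102.3 ± 4.35 and H499A at 102.2 ± 7.19, whose libraries overlapped, and then shEV at 91.9 ± 1.84 and shKdm5b at 77.8 ± 7.08. UNC1999 at 48.8 ± 1.22 and JQEZ5 at 47.4 ± 3.31 overlapped each other and stood above DMSO. No other neighbours in this order had overlapping libraries. The 2 control groups of the same NUP98-NSD1 label differed 3.23-fold, with 91.9 in shEV and 28.4 in DMSO cells, while Ring1, Rnf2, Phc2, Pcgf5 and Cbx7 differed by 0.932-fold to 1.08-fold between the same groups. Phc1 at 0.535-fold, Cbx2 at 0.636-fold and Cbx8 at 0.774-fold were lower in shEV than in DMSO cells.

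The E3 ligase genes were the steadiest with Phc2. Rnf2 ranged from 59.5 ± 1.21 CPM in H499A to 93.6 ± 5.5 in JQEZ5 cells, a 1.57-fold span, and its 4 highest groups were the NUP98-NSD1 groups other than shKdm5b, which stood at 67.8 ± 6.29 and overlapped WT and EV. Ring1 ranged from 21.9 ± 4.43 in UNC1999 to 32.1 ± 0.629 in WT cells, 1.47-fold. Phc2 spanned 1.49-fold, from 57.1 ± 0.389 in EV to 85.1 ± 5.7 in UNC1999 cells. Pcgf5 spanned 2.66-fold, with 46.2 ± 0.205 in H499A and 35.6 ± 1.27 in EV cells at the top and 17.4 ± 0.73 in DMSO and 17.8 ± 0.677 in shEV cells, which overlapped, at the bottom.

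For the readers, Cbx2 ranged from 6.36 ± 0.356 CPM in H499A to 12.2 ± 0.775 in UNC1999 cells. Cbx7 spanned 3.78-fold, from 2.01 ± 0.475 in WT to 7.57 ± 1.08 in shKdm5b cells, and Cbx8 3.07-fold, from 4.02 ± 0.6 in EV to 12.4 ± 2.29 in UNC1999 cells. Phc1 spanned 2.16-fold, from 10.1 ± 0.0849 in WT to 21.8 ± 0.792 in UNC1999 cells. Per kilobase of merged exons, Bmi1 was the highest of the 9 genes in shKdm5b, shEV, WT, H499A and EV cells, with 34.8 CPM per kilobase in EV. In DMSO it was the fourth at 7.69, behind Rnf2 at 26.2, Phc2 at 18.1 and Ring1 at 11.5, and with either inhibitor it was the third, at 13.2 with UNC1999 and 12.8 with JQEZ5.

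**Figure D1:**
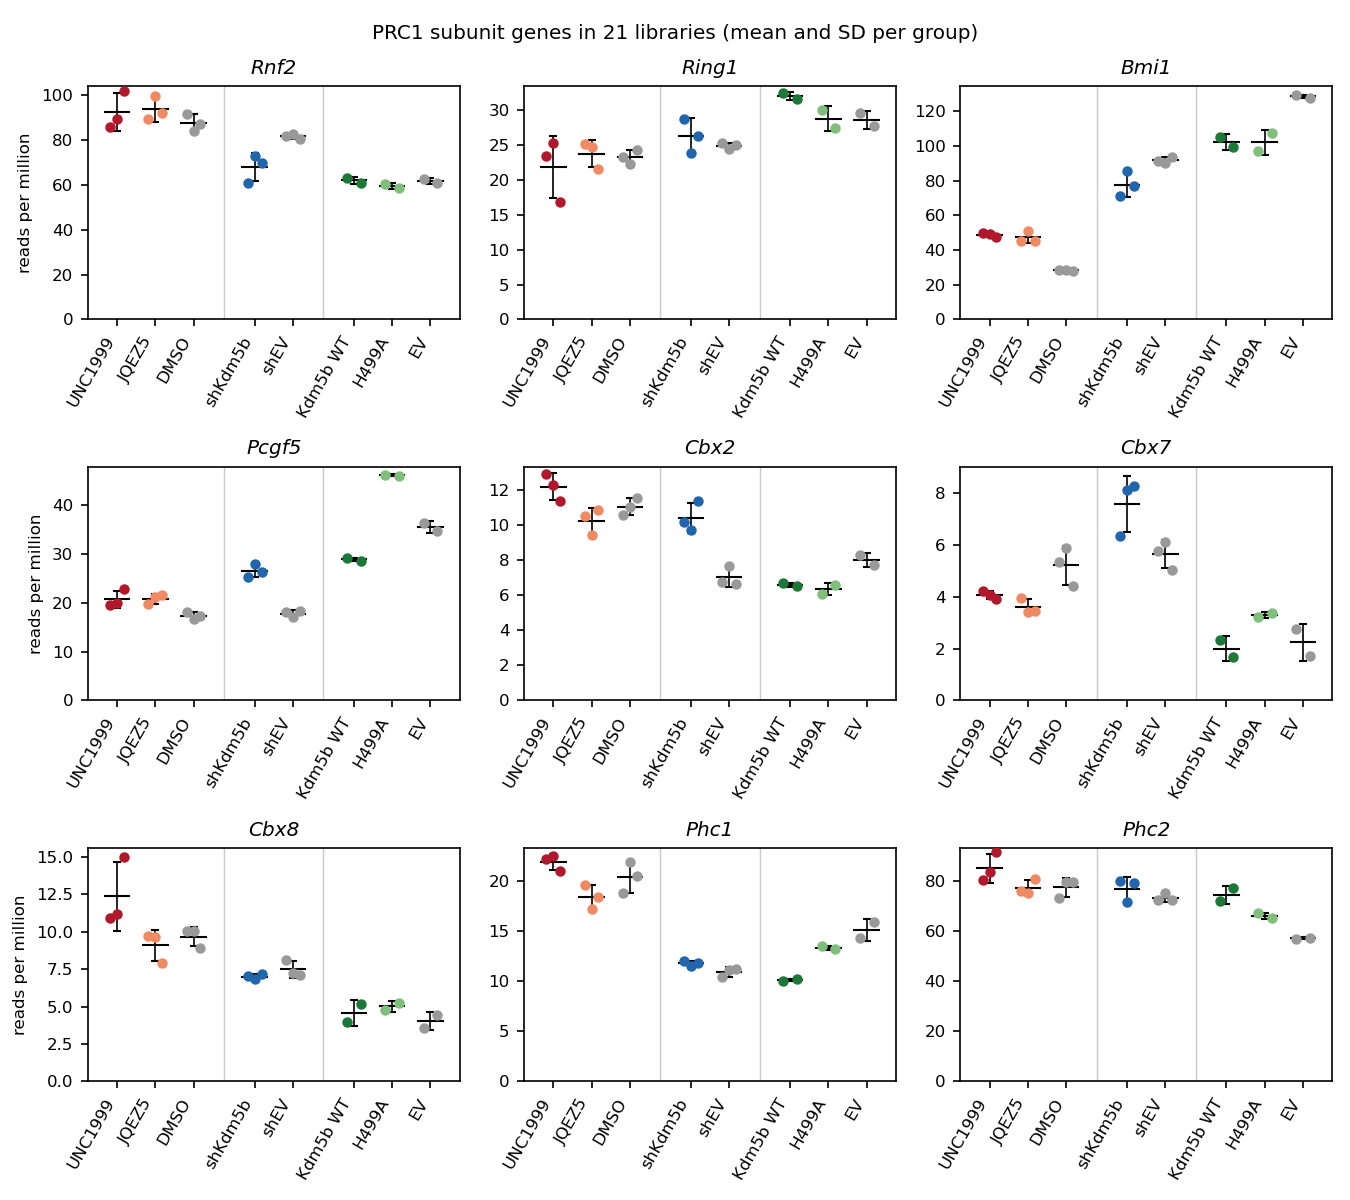
CPM (y axis, linear from 0) of the 9 PRC1 subunit genes in each of 21 libraries, grouped along the x axis; points are libraries, horizontal bars group means and whiskers SD, and grey lines separate the 3 experiments. Bmi1 runs from about 28.4 in DMSO to 128.7 in EV libraries, while Rnf2, Ring1 and Phc2 stay within spans of 1.57-fold, 1.47-fold and 1.49-fold.

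The first comparison asked how the members respond when PRC2 is inhibited. Bmi1 rose with both inhibitors, and so did Pcgf5, by less. With UNC1999 the canonical subunit genes Cbx8 and Phc2 rose as well, while the E3 ligase genes Rnf2 and Ring1 and the reader gene Cbx2 did not pass the test against DMSO with either compound. Changes were tested with limma on the deposited log2 values, with Benjamini-Hochberg adjustment over 10694 genes and a call at an adjusted p under 0.05. No member was called lower with either compound. For Cbx7 every JQEZ5 library stood below every DMSO library, at 0.709-fold, but the limma test narrowly missed the threshold (adjusted p = 0.0550). With UNC1999 against DMSO, 4 of 9 members were called, 4 higher and 0 lower, where 47.9% of all tested genes were called, 23.9% higher and 24% lower. With JQEZ5 against DMSO 2 of 9 members were called, both higher, where 23.6% of all genes were called, 13.1% higher and 10.5% lower. The median log2 difference of the members was 0.11 with UNC1999 and 0.02 with JQEZ5, against -0.01 and 0.01 over all tested genes.

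Bmi1 had 795, 773 and 747 normalised counts in the UNC1999 libraries and 704, 790.2 and 704 in the JQEZ5 libraries, against 432, 429.8 and 429.7 in the DMSO libraries. Every inhibitor library stood far above every DMSO library, and the DMSO libraries were nearly equal. The mean was 772 ± 24.0 with UNC1999 against 431 ± 1.46 with DMSO (SD, n = 3 each), 1.79-fold, with a log2 difference of 0.62 ± 0.04 (SE) on the deposited scale and an adjusted p of 1.34e-08. With JQEZ5 the mean was 733 ± 49.8, 1.70-fold above DMSO, with a log2 difference of 0.56 ± 0.04 and an adjusted p of 1.62e-07. The direct test between the inhibitors did not separate them for Bmi1, with a log2 difference of 0.06 (95% interval -0.04 to 0.15, adjusted p = 0.321). Exact permutation of 3 against 3 libraries cannot give a p below 0.1, so calls rest on the limma model.

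Pcgf5 had 312, 315 and 358 normalised counts with UNC1999 and 306, 327 and 336 with JQEZ5, against 273, 252 and 265 with DMSO. Again no inhibitor library overlapped a DMSO library. The mean of 328 ± 25.7 with UNC1999 stood 1.25-fold above 263 ± 10.9 with DMSO (log2 difference 0.20, adjusted p = 0.00487), and the mean of 323 ± 15.1 with JQEZ5 stood 1.23-fold above it (0.18, adjusted p = 0.0168). Between the inhibitors the Pcgf5 difference was 0.01 (95% interval -0.09 to 0.12, adjusted p = 0.853). Without UNC1999 replicate 3, the highest of the Pcgf5 values, the UNC1999 call was kept at an adjusted p of 0.0157. The JQEZ5 call was lost without DMSO replicate 2 (adjusted p = 0.0726), JQEZ5 replicate 2 (0.0503) or JQEZ5 replicate 3 (0.0737).

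Among the readers and PHC genes, Cbx8 had 174, 176 and 235 normalised counts with UNC1999, against 152, 151 and 136 with DMSO. The groups did not overlap, but UNC1999 replicate 3 was far above the other UNC1999 libraries. Cbx8 averaged 195 ± 35.1 against 146 ± 9.13 (1.33-fold, log2 difference 0.21, adjusted p = 0.0217), and the call was lost without UNC1999 replicate 3 (adjusted p = 0.0862) or without DMSO replicate 3 (0.0836). Phc2 had 1280, 1317 and 1437 normalised counts with UNC1999 against 1104, 1204 and 1213 with DMSO, all higher (1.15-fold, adjusted p = 0.00680, and 0.0291 without UNC1999 replicate 3). The other members did not pass against DMSO. Rnf2 stood at 1.10-fold with UNC1999 (adjusted p = 0.0815) and 1.09-fold with JQEZ5 (0.152), Ring1 at 0.978-fold (0.775) and 1.04-fold (0.790), Cbx2 at 1.15-fold (0.121) and 0.948-fold (0.657), and Phc1 at 1.12-fold (0.115) and 0.922-fold (0.361). Cbx7, with only 50 to 82 reads per library, stood at 0.813-fold with UNC1999 (0.174) and 0.709-fold with JQEZ5 (0.0550). The Rnf2 value with UNC1999 passed without UNC1999 replicate 1 (adjusted p = 0.0327), and the Cbx7 value with JQEZ5 passed under several other settings, with adjusted p of 0.0169 to 0.0442.

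Both compounds were given at the same dose and time, and their direct comparison called 4 of 9 members, 4 higher with UNC1999 and 0 lower, where 36.4% of all genes were called, 18.7% higher and 17.7% lower. These were Cbx2, Cbx8, Phc1 and Phc2. All are canonical PRC1 genes, as are most of the 9 members, and of 5 other canonical PRC1 genes tested 0 were called here. Cbx2 averaged 193 ± 13.4 normalised counts with UNC1999 against 159 ± 11.6 with JQEZ5 (1.22-fold, adjusted p = 0.0467), and Cbx8 195 ± 35.1 against 140.5 ± 15.9 (1.39-fold, adjusted p = 0.0138). Phc1 averaged 345 ± 13.9 with UNC1999 against 284 ± 18.8 with JQEZ5 (1.21-fold, adjusted p = 0.0152). Phc2 averaged 1345 ± 82.3 against 1197 ± 47.5 (1.12-fold, adjusted p = 0.0232). The calls were close to the threshold. The Cbx2 call was lost in 5 of 6 fits that left out an inhibitor library (adjusted p 0.0617 to 0.160), all but the one without UNC1999 replicate 3 (0.0206), and also without the filter (0.0531) or with only these groups in the fit (0.0816). Cbx8 was lost without JQEZ5 replicate 3 (0.0744), Phc1 without JQEZ5 replicate 2 (0.0654), and Phc2 without JQEZ5 replicate 1 (0.0700), JQEZ5 replicate 2 (0.0759) or UNC1999 replicate 3 (0.0905). For Rnf2 the interval of the difference ran from -0.10 to 0.12 log2 units, for Ring1 from -0.23 to 0.10 and for Cbx7 from -0.06 to 0.20.

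Markers of macrophages, neutrophils and dividing cells moved in the same libraries. The 10 listed macrophage and monocyte markers, of 12 in the list, summed to 21020 to 21660 CPM with UNC1999 and 14940 to 15090 with JQEZ5, against 8119 to 8182 with DMSO, and 9 of 10 rose with UNC1999, while with JQEZ5 9 rose and 1 fell. The 14 dividing-cell markers summed to 1875 to 1908 with UNC1999 and 2353 to 2426 with JQEZ5, against 2781 to 2819 with DMSO, where 14 of 14 and 12 of 14 fell. The 10 listed neutrophil markers summed to 5712 to 5878 CPM with UNC1999 and 7358 to 7714 with JQEZ5, against 7160 to 7489 with DMSO. Of 9 tested, 6 were higher and 3 lower with UNC1999, among them S100a8 at 6.48-fold and the receptor gene Cxcr2 at 0.227-fold, and 4 were higher and 2 lower with JQEZ5. No marker of these 3 lists was at 0 in any library. Their part in the member results was not tested, and in bulk RNA fewer cells of a type and less RNA per cell cannot be told apart.

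Depletion of Kdm5b asked what the members do when this H3K4 demethylase is reduced in NUP98-NSD1 cells. The Bmi1 gene and the E3 ligase gene Rnf2 fell, whereas Pcgf5 and the H3K27me3 reader genes Cbx2 and Cbx7 rose. Ring1, Cbx8, Phc1 and Phc2 did not pass the test. That made 5 of 9 members called, 3 higher and 2 lower, where 32.5% of 10810 tested genes were called, 15% higher and 17.4% lower. The median log2 difference was 0.05 over the members and -0.01 over all tested genes.

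Bmi1 had 2114, 2491 and 2228 normalised counts in shKdm5b cells, against 2691, 2666 and 2776 in shEV cells. All shKdm5b libraries were below all shEV libraries, with shKdm5b replicate 2 the closest to them. The mean was 2278 ± 193 against 2711 ± 57.5 (SD, n = 3 each), 0.840-fold, with a log2 difference of -0.22 ± 0.06 and an adjusted p of 0.0153. Without shKdm5b replicate 1, the lowest library, the difference was -0.18 with an adjusted p of 0.00843. The call was lost without shEV replicate 1 (adjusted p = 0.0575), 2 (0.0501) or 3 (0.0703), with log2 differences of -0.23, -0.24 and -0.21. All genes called over the table numbered 1907 to 2017 in these 3 fits, against 3509 with every library and 5556 without shKdm5b replicate 1.

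Rnf2, the catalytic partner of BMI1, had 1799, 2125 and 2023 normalised counts in shKdm5b cells, against 2412, 2439 and 2381 in shEV cells. Its order over the shKdm5b libraries was that of Bmi1, with replicate 1 lowest and replicate 2 highest. The mean was 1983 ± 167 against 2411 ± 29.0, 0.823-fold, with a log2 difference of -0.25 ± 0.06 and an adjusted p of 0.00970. Without shKdm5b replicate 1 the difference was -0.19 with an adjusted p of 0.00145. Ring1, the other E3 ligase gene, averaged 772 ± 78.6 against 734 ± 13.6 and overlapped (adjusted p = 0.533).

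Pcgf5 had 753, 819 and 767 normalised counts in shKdm5b cells, against 534, 503 and 542 in shEV cells. The lowest shKdm5b library lay well above the highest shEV library. The mean was 779.5 ± 34.5 against 526 ± 20.7, 1.48-fold, with a log2 difference of 0.39 ± 0.04 and an adjusted p of 0.000345, or 9.55e-05 without shKdm5b replicate 1. Cbx2 had 302, 284 and 330.4 normalised counts in shKdm5b against 199.7, 226 and 197 in shEV cells, again without overlap. Its mean was 305 ± 23.5 against 208 ± 15.9 (1.47-fold, log2 difference 0.29, adjusted p = 0.00314, and 0.00218 without shKdm5b replicate 1). Cbx7 had 187.5, 236.5 and 240.3 in shKdm5b against 170.2, 180.3 and 149 in shEV cells. These groups were the closest of the 5 calls, with shKdm5b replicate 1 next to shEV replicate 2. Cbx7 averaged 221 ± 29.5 against 166.5 ± 15.9 (1.33-fold, log2 difference 0.19, adjusted p = 0.0385). The Cbx7 call was lost without any 1 shEV library (adjusted p 0.0660 to 0.145) and without shKdm5b replicate 2 (0.112) or 3 (0.105), while it stood at 0.00362 without shKdm5b replicate 1, and with quantile normalisation it was 0.0536. Cbx8 was at 0.926-fold (adjusted p = 0.399), Phc1 at 1.07-fold (0.325) and Phc2 at 1.04-fold (0.490).

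In the same libraries the macrophage and monocyte markers summed to 1962 to 2260 CPM in shKdm5b, against 2512 to 2547 in shEV cells, with 2 of 10 called higher and 8 lower. Dividing-cell markers summed to 4604 to 4805 in shKdm5b, against 4670 to 4706 in shEV cells, which overlapped, with 4 of 14 called higher and 3 lower. The 9 listed neutrophil markers summed to 10280 to 12190 CPM in shKdm5b, against 11160 to 11480 in shEV cells, with 4 of 6 tested called higher and 0 lower, Elane at 1.93-fold and Mmp8 at 2.24-fold among them. The 3 listed mast cell and basophil markers summed to 357.7 to 444.2 CPM in shKdm5b, against 292.8 to 307.1 in shEV cells, and the 3 listed B cell markers to 22.1 to 27.6, against 10.6 to 13.0. Among them Mcpt8, a basophil protease, averaged 2644 ± 175 normalised counts in shKdm5b against 72.0 ± 8.99 in shEV cells, and Igll1, a surrogate light chain gene, 629.7 ± 85.3 against 11.8 ± 1.4. The other tested B cell marker, Cd79b, was lower, at 69.7 ± 8.08 in shKdm5b against 332 ± 36.1 in shEV cells. The shEV means of Mcpt8 and Igll1 lay below the filter of 86.6 normalised counts, which both passed only through the shKdm5b libraries. The shKdm5b mean of Cd79b also lay below the filter, which Cd79b passed only through the shEV libraries. The part of these markers in the member results was not tested.

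**Figure D2:**
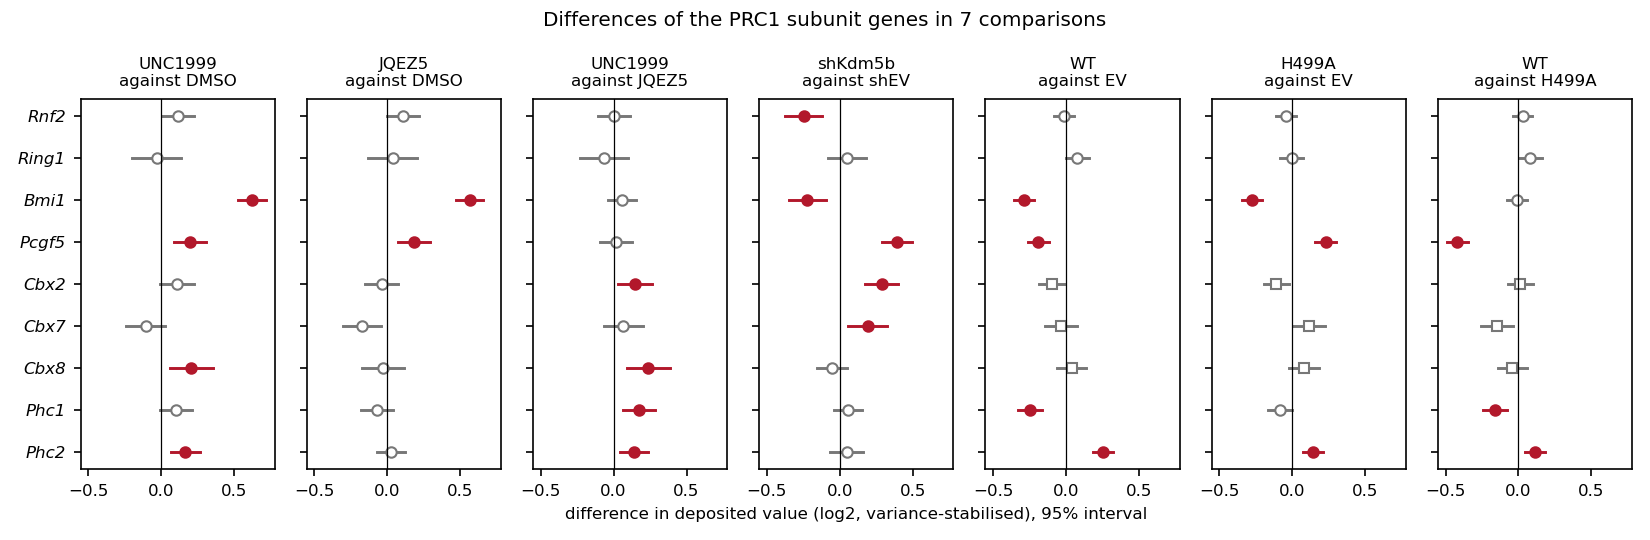
Difference of each member in the 7 comparisons, as log2 difference of the deposited variance-stabilised values (x axis) with its 95% interval. Filled red points passed the test at an adjusted p under 0.05, open circles did not, and open squares mark Cbx2, Cbx7 and Cbx8 in the overexpression experiment, which were below the filter on low values and come from the fit without it. Bmi1 is right of 0 with UNC1999 and JQEZ5 and left of 0 in shKdm5b, WT and H499A cells, while Pcgf5 is left of 0 against EV in WT and right of 0 in H499A cells.

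Ectopic Kdm5b in MLL-AF9 cells asked what the members do when the demethylase is raised, with or without its activity. Bmi1 fell to a like level in WT and in H499A cells. Pcgf5 went opposite ways, falling in WT and rising in H499A cells. The polyhomeotic genes diverged as well, with Phc1 falling and Phc2 rising in WT cells, and Phc2 rising in H499A cells. Ring1 and Rnf2 did not pass in any of the 3 comparisons. Of the 9 members 6 were above the filter on low values here, and Cbx2, Cbx7 and Cbx8 were below it. Of these 6, WT against EV called 1 higher and 3 lower, where 62.2% of 9458 tested genes were called, 29.8% higher and 32.4% lower. In H499A against EV 2 were called higher and 1 lower, where 49.6% of all genes were called, 22.7% higher and 26.9% lower. In WT against H499A 1 was called higher and 2 lower, where 54.4% of all genes were called, 28.2% higher and 26.3% lower. With 2 libraries per group an exact permutation test cannot give a p below 0.333, and the limma fit shares its spread over the 3 groups.

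Bmi1 had 1939 and 1812 normalised counts in WT cells and 1801 and 1990 in H499A cells, against 2413 and 2394 in EV cells. Both Kdm5b groups lay below EV and overlapped each other. The means were 1875 ± 89.9 in WT (0.780-fold of EV, log2 difference -0.29 ± 0.03, adjusted p = 4.40e-08) and 1896 ± 133 in H499A (0.789-fold, -0.28 ± 0.03, adjusted p = 1.33e-07), against 2404 ± 13.7 in EV cells (SD, n = 2 each). WT and H499A differed by -0.01 log2 units (95% interval -0.08 to 0.06, adjusted p = 0.797). Bmi1 thus fell where Kdm5b was raised in MLL-AF9 cells and also where it was depleted in NUP98-NSD1 cells. With the inhibitors, where Bmi1 rose, Kdm5b stood at 1.46-fold of DMSO with UNC1999 (adjusted p = 1.65e-07) and 1.08-fold with JQEZ5 (0.112). The part of Kdm5b in the inhibitor results was not tested.

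Pcgf5 had 536 and 524 normalised counts in WT cells and 859 and 853 in H499A cells, against 680.5 and 648 in EV cells. The 3 groups did not overlap, with H499A highest and WT lowest. WT averaged 529.7 ± 8.46 against 664.5 ± 22.7 in EV (0.797-fold, log2 difference -0.19 ± 0.04, adjusted p = 4.48e-05), and H499A averaged 856 ± 4.18 (1.29-fold, 0.23 ± 0.04, adjusted p = 5.19e-06). The direct test of WT against H499A gave 0.619-fold, a log2 difference of -0.42 ± 0.04 and an adjusted p of 1.62e-10. Among the members it was the largest difference in either direction between the 2 Kdm5b forms that passed the filter.

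Phc1 had 185 and 186 normalised counts in WT cells and 249.8 and 244 in H499A cells, against 267 and 297 in EV cells. WT libraries were the lowest, and H499A libraries lay between them and EV. Phc1 averaged 185 ± 0.599 in WT against 282 ± 20.8 in EV (0.657-fold, log2 difference -0.25, adjusted p = 9.10e-06) and 0.750-fold of H499A (adjusted p = 0.00133). H499A, at 247 ± 4.00, was not called against EV (0.876-fold, adjusted p = 0.0959, or 0.0470 with quantile normalisation). Phc2 had 1326 and 1408 in WT cells and 1244 and 1212 in H499A cells, against 1061 and 1074 in EV cells. The order was WT above H499A above EV, with no overlap. Phc2 averaged 1367 ± 58.3 in WT (1.28-fold of EV, adjusted p = 1.82e-07) and 1228 ± 22.8 in H499A (1.15-fold, adjusted p = 0.000657), against 1067 ± 8.68 in EV. WT stood 1.11-fold above H499A (adjusted p = 0.00506), a call lost without WT replicate 2 (0.0820) or H499A replicate 2 (0.0574).

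Rnf2 averaged 1136 ± 33.5 normalised counts in WT and 1104 ± 22.9 in H499A, against 1152 ± 23.9 in EV cells, with adjusted p of 0.725 and 0.281. Ring1 averaged 587 ± 14.8 in WT and 533 ± 33.7 in H499A, against 535 ± 22.9 in EV cells, with adjusted p of 0.0830 and 0.954. WT against H499A gave an adjusted p of 0.0799 for Ring1, and 0.0465 without H499A replicate 1. The CBX genes had 30 to 157 reads per library here. In the fit without the filter Cbx2 averaged 121 ± 2.83 in WT (adjusted p = 0.0528) and 118 ± 6.55 in H499A (0.0402), against 149.7 ± 7.26 in EV cells. Cbx7 averaged 36.8 ± 8.91 in WT, against 61.1 ± 2.33 in H499A cells (0.602-fold, adjusted p = 0.0306). EV cells had 41.8 ± 13.4, and in the same fit neither WT (adjusted p = 0.647) nor H499A (0.0894) was called against EV for Cbx7. Cbx8 had 83.4 ± 15.5 in WT and 92.8 ± 6.54 in H499A, against 75.1 ± 11.3 in EV cells, with no call.

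The 9 listed macrophage and monocyte markers summed to 3027 to 3193 CPM in WT and 1971 to 1980 in H499A, against 1144 to 1189 in EV cells, with 7 of 7 tested markers higher in WT and 6 of 7 in H499A. Dividing-cell markers summed to 4717 to 4720 in WT and 5054 to 5064 in H499A, against 5280 to 5297 in EV cells. Neutrophil markers summed to 6642 to 6850 CPM in WT and 5053 to 5094 in H499A, against 4937 to 5163 in EV cells, with 3 of 5 tested higher and 2 lower in WT and 2 higher and 1 lower in H499A. Mpo weighed most in these sums, with 111600 ± 1591 normalised counts in WT against 82280 ± 2544 in EV cells. Elane was lower, at 661.4 ± 27.7 against 1345 ± 86.65. Of the 10 listed neutrophil markers, up to 3 had 0 reads in a WT library and up to 1 in an H499A library. Mast cell and basophil markers summed to 238.6 to 245.4 in WT and 244.1 to 254.3 in H499A, against 322.7 to 330.6 in EV cells, with 4 of 4 lower in WT and 3 lower and 1 higher in H499A. Cd79b, a B cell marker, stood at 0.718-fold in WT and 2.08-fold in H499A. Macrophage sums stood highest in WT cells and Bmi1 lowest in both Kdm5b groups, whereas with the PRC2 inhibitors macrophage sums and Bmi1 were both higher than in DMSO. The part of these markers in the member results was not tested.

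Set side by side, Bmi1 and Pcgf5 moved together or apart depending on the experiment. Relative to the mean of their own controls on the deposited log2 scale, the UNC1999 libraries stood at 0.59 to 0.66 for Bmi1 and 0.15 to 0.28 for Pcgf5, and the JQEZ5 libraries at 0.52 to 0.65 and 0.13 to 0.22. The shKdm5b libraries stood at -0.32 to -0.11 for Bmi1 and 0.36 to 0.45 for Pcgf5. H499A libraries had -0.33 and -0.22 for Bmi1 with 0.23 and 0.23 for Pcgf5, and WT libraries had -0.25 and -0.33 for Bmi1 with -0.18 and -0.20 for Pcgf5. Bmi1 and Pcgf5 were thus both higher with the inhibitors, both lower in WT cells, and opposite in shKdm5b and H499A cells. UNC1999 and JQEZ5 share the DMSO libraries, and WT and H499A share the EV libraries.

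**Figure D3:**
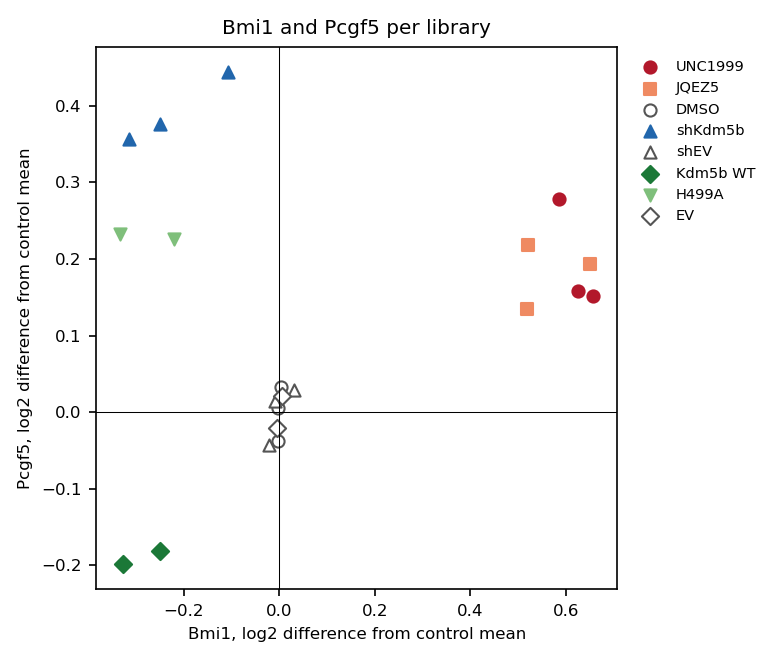
Bmi1 (x axis) and Pcgf5 (y axis) in each of 21 libraries, each as the deposited log2 value minus the mean of the control libraries (DMSO, shEV or EV) of the same table. UNC1999 and JQEZ5 libraries lie at the upper right, shKdm5b and H499A at the upper left, WT at the lower left, and the controls around 0.

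The PCGF protein defines the kind of PRC1, so the reads of the 6 Pcgf genes were compared per kilobase of merged exons. Bmi1 held 35.8% ± 0.283 of the summed length-scaled Pcgf reads with UNC1999 and 33.9% ± 2.43 with JQEZ5, against 24.8% ± 0.119 with DMSO (SD, n = 3 each). Pcgf1, whose product forms the variant complex with KDM2B and BCOR, was the largest of the 6 in DMSO at 36.6% ± 0.898, against 28.6% ± 1.6 with UNC1999 and 32.2% ± 2.43 with JQEZ5. With UNC1999 Bmi1 exceeded Pcgf1 in share, and in DMSO it was below it. Pcgf1 itself was not called, at 0.970-fold with UNC1999 and 1.10-fold with JQEZ5. In shKdm5b cells Bmi1 held 37.2% ± 2.16, against 43.7% ± 1.0 in shEV cells, while Pcgf5 held 6.97% ± 0.156 against 4.65% ± 0.204. The shares of Pcgf2, the closest paralog of Bmi1, were 3.7% ± 0.182 in shKdm5b and 1.67% ± 0.0683 in shEV cells, and of Pcgf6 2.99% ± 0.553 and 5.59% ± 0.812.

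In MLL-AF9 cells Bmi1 held 51.7% ± 0.902 of the length-scaled Pcgf reads in WT and 48.1% ± 1.96 in H499A, against 53.0% ± 0.48 in EV cells (SD, n = 2 each). Pcgf5 held 8.0% ± 0.116 in WT and 11.9% ± 0.408 in H499A, against 8.01% ± 0.301 in EV cells, so its share in WT was that of EV although its level was lower. Other Pcgf genes were lower in WT than in EV as well, with Pcgf3 at 0.879-fold (adjusted p = 0.00278) and Pcgf6 at 0.813-fold (0.00133). Pcgf6 held 17.6% to 18.2% over the MLL-AF9 groups and 2.99% to 5.59% over the NUP98-NSD1 groups, and Pcgf1 7.47% to 8.65% against 28.6% to 36.6%. These shares come from separate tables, and the 2 oncogenes and the experiments cannot be told apart. With the longest coding transcript as the length, a choice made after seeing the data, the Bmi1 share was 34.3% with UNC1999, against 23.6% with DMSO, and 50.8% in WT, against 52.1% in EV cells.

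**Figure D4:**
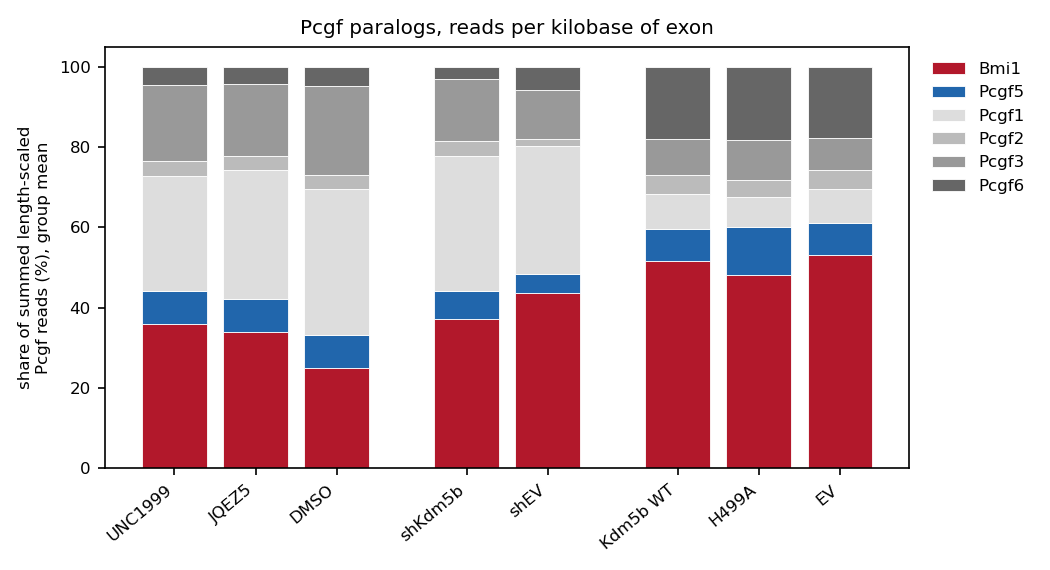
Share of each Pcgf gene in the summed reads per kilobase of the 6 Pcgf genes (y axis, percent, group means) in the 8 groups. Bmi1 (red) takes 24.8% in DMSO and 35.8% with UNC1999, 37.2% in shKdm5b and 43.7% in shEV, and 48.1% to 53.0% in the MLL-AF9 groups, while Pcgf5 (blue) is largest in H499A cells at 11.9%.

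Other canonical PRC1 genes were given by a list of 7, of which 5 were tested in each experiment. With UNC1999 1 was higher and 2 lower, with Phc3, another polyhomeotic gene, at 1.18-fold (adjusted p = 0.0265) and Cbx6 at 0.867-fold (0.0234). With JQEZ5 0 were higher and 1 lower. Of the 5, 0 were called between UNC1999 and JQEZ5. In shKdm5b cells 3 of 5 were higher and 0 lower, with a median log2 difference of 0.14 against -0.01 over all genes. With either inhibitor against DMSO and in WT cells the list's median lay between 0.01 and 0.06, and in H499A cells it was -0.09. Pcgf2 had 173.5 ± 10.96 normalised counts in shKdm5b against 79.3 ± 2.81 in shEV cells (2.19-fold, adjusted p = 0.000181) and Scmh1 stood at 1.37-fold (0.000788). As a ratio the Pcgf2 rise was the largest among PRC1 genes named in this comparison, opposite in direction to Bmi1. On the tested log2 scale the variant PRC1 gene E2f6 rose more, by 0.53 against 0.43 for Pcgf2. The shEV mean of Pcgf2 lay below the filter of 86.6 normalised counts, which the gene passed only through the shKdm5b libraries. In WT against EV cells 2 were higher and 2 lower, with Phc3 at 1.31-fold (adjusted p = 3.52e-06), Cbx6 at 1.14-fold (0.000390) and Pcgf2 at 0.812-fold (0.0365). In H499A against EV cells Cbx6 (0.815-fold, adjusted p = 2.54e-06) and Scmh1 (0.850-fold, 0.00135) were lower. Between WT and H499A 3 were higher and 1 lower, led by Cbx6 with 1685 ± 17.0 in WT against 1206 ± 63.6 in H499A cells (39.8% higher, adjusted p = 4.35e-10).

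Of 26 variant PRC1 genes outside the members, 23 were tested in the inhibitor experiment and 24 in the others. With UNC1999 3 were higher and 10 lower, with JQEZ5 1 and 3, and with UNC1999 against JQEZ5 3 and 10. The lowest adjusted p with UNC1999 belonged to Tfdp1, an E2F partner, at 0.742-fold (adjusted p = 8.81e-08), Kdm2b, which brings PCGF1 complexes to CpG islands, at 0.729-fold (4.20e-06), Mga, a scaffold of the PCGF6 complex, at 1.31-fold (3.24e-05) and Max at 0.804-fold (7.04e-05). With JQEZ5 Rybp, a variant subunit that takes the place of CBX, stood at 0.889-fold (adjusted p = 0.00298) and Mga at 1.14-fold (0.0267). The list's median log2 difference was -0.06 with UNC1999 and 0.01 with JQEZ5, against -0.01 and 0.01 over all genes. In shKdm5b cells 2 were higher and 4 lower, led by E2f6 at 1.55-fold (adjusted p = 0.000118), the kinase gene Csnk2a1 at 0.827-fold (0.00287) and Pcgf6 at 0.528-fold (0.00336). The products of E2f6 and Pcgf6 meet in the same complex. In WT against EV cells 5 were higher and 12 lower, with Cbx3 at 0.724-fold (adjusted p = 1.25e-13) and Usp7 at 0.821-fold (1.82e-09) first. In H499A against EV cells 1 was higher and 6 lower, again with Cbx3 first, at 0.868-fold (adjusted p = 8.82e-07), and Ckb higher at 1.65-fold (2.99e-05). The EV mean of Ckb, at 111.4 normalised counts, lay below the filter of 145. WT against H499A called 6 higher and 9 lower. The median was -0.03 in shKdm5b, -0.07 in WT and -0.05 in H499A cells, against -0.01 over all genes in each of these comparisons with a control.

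Enzymes that remove ubiquitin from histone H2A, with their partners, were followed as a list of 12, of which 11 were tested throughout. UNC1999 against DMSO called 2 higher and 3 lower, JQEZ5 1 and 1, UNC1999 against JQEZ5 0 and 1, and shKdm5b against shEV 0 and 3. WT against EV called 2 higher and 4 lower, H499A against EV 0 and 4, and WT against H499A 4 and 1. Mysm1, an H2A deubiquitinase needed in blood stem cells, was higher with UNC1999 (1.21-fold, adjusted p = 0.00370) and in WT cells against EV (1.26-fold, 3.00e-05). Bap1, the catalytic subunit of the complex that opposes PRC1, was lower in WT (0.894-fold, adjusted p = 0.000267) and in H499A cells (0.923-fold, 0.00783), both against EV. The list's median lay between -0.04 and 0.06 over the 7 comparisons.

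PRC2 subunits, whose mark the CBX proteins read, fell more often than they rose with UNC1999 and in WT cells. UNC1999 against DMSO called 2 of 11 higher and 7 lower, with Ezh2, the catalytic subunit, at 0.759-fold (adjusted p = 3.23e-05) and Suz12 at 0.815-fold (2.34e-05). JQEZ5 called 0 higher and 3 lower, and UNC1999 against JQEZ5 1 and 6. The list's median log2 difference was -0.27 with UNC1999 and -0.07 with JQEZ5, against -0.01 and 0.01 over all genes, and -0.15 in WT cells. shKdm5b called 3 of 11 higher and 0 lower, namely Jarid2 (1.26-fold), Phf1 (1.35-fold) and Ezh1 (1.23-fold). WT against EV called 2 of 10 higher and 7 lower, H499A against EV 1 and 4, and WT against H499A 2 and 5. Jarid2, a cofactor that guides PRC2, had 1810 ± 127.7 normalised counts in WT against 2995 ± 6.94 in H499A cells (0.604-fold, adjusted p = 4.20e-14), and H499A stood 1.42-fold above EV (5.30e-11).

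Genes known as Polycomb targets in other cells were followed as a list of 20, of which 11 were tested in the NUP98-NSD1 experiments and 8 in MLL-AF9 cells. Cdkn2a, the locus that BMI1 represses in other cells, had 299 ± 29.6 normalised counts with UNC1999 and 157.5 ± 3.08 with JQEZ5, against 100.1 ± 12.2 with DMSO, 2.99-fold (adjusted p = 1.50e-08) and 1.57-fold (0.00143). Bmi1 rose in the same libraries. In WT cells Cdkn2a had 317 ± 2.01, against 61.3 ± 0.246 in EV cells, 5.17-fold (adjusted p = 4.32e-15). It stood 3.68-fold above the 86.2 ± 2.34 of H499A cells (adjusted p = 2.73e-13). The EV and H499A means lay below the filter of 145 normalised counts, which Cdkn2a passed only through the WT libraries. Bmi1 was lower than in EV in both groups, at 0.780-fold in WT and 0.789-fold in H499A cells. Between WT and H499A it did not differ beyond its spread. A link between Bmi1 and Cdkn2a was not tested. UNC1999 against DMSO called 1 higher and 6 lower, with Hoxa9, a leukaemia self-renewal gene, at 0.662-fold, JQEZ5 1 and 5, and UNC1999 against JQEZ5 1 and 2. shKdm5b called 4 higher and 3 lower, with Sox4 at 1.54-fold (adjusted p = 0.00120). WT against EV called 2 higher and 4 lower, H499A against EV 6 and 2, and WT against H499A 1 and 6. The list's median log2 difference was -0.15 with UNC1999, -0.14 with JQEZ5, 0.08 in shKdm5b, -0.10 in WT and 0.19 in H499A cells.

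Commd3 ends 786 bases upstream of Bmi1 on the same strand and was looked at after its values were seen. It stood at 1.21-fold with UNC1999 (adjusted p = 0.000740) and 1.21-fold with JQEZ5 (0.00184), where Bmi1 stood at 1.79-fold and 1.70-fold. In shKdm5b cells Commd3 was at 0.886-fold (adjusted p = 0.0420) beside 0.840-fold for Bmi1. In MLL-AF9 cells it was not called, at 1.06-fold in WT (adjusted p = 0.0964) and 1.014-fold in H499A (0.712), where Bmi1 stood at 0.780-fold and 0.789-fold.

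The genes whose pattern was most like that of Bmi1 were found over all 21 libraries, from each value minus its control mean, among 9028 genes tested in every table. Pearson r was 0.972 for Hsd17b12, a fatty acid elongation enzyme, 0.971 for Plek, 0.964 for Rapgef1, 0.956 for Sqle, an enzyme of cholesterol synthesis, and 0.952 for Prkar2b. The libraries share their controls and experiments, so these r values describe and carry no p. Plek stood at 1.30 log2 units above the control mean with UNC1999 and at -0.82 in shKdm5b cells, beside 0.62 and -0.22 for Bmi1. Among the members r with Bmi1 was 0.706 for Rnf2, 0.333 for Phc1, 0.164 for Pcgf5, -0.09 for Phc2 and -0.18 for Ring1. By this r, Rnf2 ranked 636 and Phc1 2499 among the 9028 genes. None of these members was among the 5 genes most like Bmi1. Cbx2, Cbx7 and Cbx8 were below the filter in the overexpression experiment, so they were not among the genes compared.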

How the data were processed

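Bulk RNA sequencing of 21 libraries in 8 groups was analysed from 3 tables of log2 values deposited by the authors. Per the submitters' processing notes, STAR 2.4.2, Salmon 0.1.19 and DESeq2 1.38.2 were used on mm10 (GRCm38.p4). The annotation release and strand setting are not given in the sources used here, and the labels name 2 library kits without saying which made which library. The deposited log2 values carry a variance-stabilising transformation, whose floor (6.88278 in the inhibitor, 7.43603 in the knockdown and 8.18232 in the overexpression table) is the value of a gene without reads, so log2 differences of low genes are compressed. Undoing it in closed form gave normalised counts that were whole multiples of 1 step in 100% of values at a tolerance of 0.05, and so the reads and depth of each library. Levels and folds in the text are in normalised counts or CPM, and tests used the deposited values.

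Tests came from limma 3.58.1 under R 4.3.3, fitted within a table with a mean for every group and a variance trend, with Benjamini-Hochberg adjustment over all tested genes and calls at an adjusted p under 0.05. A gene was tested when it exceeded that floor by 1 log2 unit in at least as many libraries as make up the smallest group (59.0, 86.6 and 145 normalised counts), which left 10694, 10810 and 9458 of 14178, 15623 and 13949 genes. On simulated data with 200 changed genes, changes of 0.25 log2 units were recovered in 62% of genes for UNC1999 against DMSO. The share was 46% for shKdm5b against shEV and 84% for WT against EV. Changes of 0.5 units were recovered in 98%, 95.8% and 98%. Far more genes were called in the data, so these shares do not give the recovery of the reported tests. Between libraries of 1 group the chi-square of counts over its degrees of freedom was 1.39 to 23.3, so the spread is wider than sampling of reads would make it. Members and lists were chosen with earlier results of these data known. Named were all members, Kdm5b, and from each list up to 4 called genes of lowest adjusted p per comparison, with the Pcgf paralogs for shares and Commd3 added later, and 1 gene of these lists is not reported here. Alternatives covered the filter, scaling, variance model, groups in the fit, replicate block, voom on the recovered counts and leaving out each library. Sequences are from RefSeq (GRCm38.p6) and lengths from the GENCODE annotation of GRCm38.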

Additional observations from a re-analysis of the deposited data

How the results depend on the processing

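The number of members called was within 1.5 times the reported one under every alternative scaling, variance model and choice of groups and with voom on recovered counts. Over all genes, voom called 5061 for UNC1999 and 2593 for JQEZ5 against DMSO, 3528 for shKdm5b against shEV, and 5774 for WT and 4631 for H499A against EV, each within 1.5 times the limma count. A filter at 2 log2 units tested fewer members and left 2 calls for UNC1999 against JQEZ5 and 3 for shKdm5b against shEV. Leaving out 1 library at a time gave 3 to 5 calls for UNC1999 against DMSO, 1 to 3 for JQEZ5 against DMSO, 1 to 3 for UNC1999 against JQEZ5, 3 to 5 for shKdm5b against shEV, 4 for WT against EV, 3 for H499A against EV and 2 to 4 for WT against H499A.

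Deviations of same-numbered libraries from their group means correlated at -0.15 to 0.223. Differently numbered libraries were not compared, and with 2 libraries per group the deviations mirror each other. Whether the numbers pair the libraries is therefore not settled. With the replicate block, calls were 4 for UNC1999 against DMSO, 2 for JQEZ5 against DMSO, 3 for UNC1999 against JQEZ5 (Cbx2 lost, adjusted p = 0.0669), 5 for shKdm5b, 4 for WT and 3 for H499A against EV, and 3 for WT against H499A.

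Over all alternatives, 634 member values kept their direction and call, 29 lost a call, 9 gained one and 20 changed sign. Sign changes were limited to members that were not called. In log2 units, Ring1 in H499A against EV was 0.0095 with voom, and Rnf2 in UNC1999 against JQEZ5 was -0.0049 with quantile normalisation and -0.0029 with voom. With 1 library left out, Bmi1 in WT against H499A ran from -0.068 to 0.045, Cbx8 with JQEZ5 against DMSO from -0.056 to 0.016, Phc2 in the same comparison from -0.012 to 0.045 and Pcgf5 with UNC1999 against JQEZ5 from -0.027 to 0.037. Ring1 ran from -0.10 to 0.085 with UNC1999 against DMSO, from -0.14 to 0.049 with UNC1999 against JQEZ5, from -0.0044 to 0.10 in shKdm5b against shEV and from -0.039 to 0.033 in H499A against EV. Rnf2 ran from -0.055 to 0.045 with UNC1999 against JQEZ5 and from -0.035 to 0.0069 in WT against EV. The cause was not tested.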
